A study of Mus musculus with 4 samples.

Results

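The glutathione S-transferases described here are 10 mouse genes, Gsta3, Gsta4, Gstm1, Gstm2, Gstm5, Gstp1, Gsto1, Gstt1, Gstk1 and Mgst1, taken as every probe set that the platform annotation assigns to exactly 1 of these symbols. Each of the 10 had at least 1 probe set, and together they had 16 of the 45037 probe sets that are not array controls. The 10 were among 18193 genes on the array. There were 2 IKKa floxed and 2 wild type lung samples from mice of strain B6/J, each on 1 single-colour Affymetrix array. IKKa floxed mice carry loxP sites in the gene for IKKα, a kinase that activates NF-κB signalling. Mice of both genotypes had received an adenovirus with Cre recombinase into the trachea 4 months earlier, so the virus and Cre are shared by the controls. The virus reaches only part of the lung's cells, and whole lung was measured. The labels give no age or sex. They leave unsaid whether the replicates of a genotype are different mice, so the p-values below reflect the scatter among these 4 arrays, and that scatter may be technical.

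Glutathione S-transferases join the tripeptide glutathione to reactive, electrophilic compounds, which makes these more soluble and ready for export. The soluble enzymes fall into classes named by Greek letters. Kappa enzymes lie in mitochondria and peroxisomes, and the microsomal enzymes are membrane proteins of a separate family called MAPEG. In the lung they are known for handling inhaled toxicants and products of lipid oxidation, with high levels in club cells of the airway. Several of their genes are textbook targets of NRF2, a transcription factor that binds the antioxidant response element.

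The stretches just upstream of the annotated starts are shown for the members with the largest differences between groups, Gsta3 and Gsto1, and around matches to 2 motifs in 3 other members. They were read from RefSeq (GRCm38.p6), 5′ to 3′ on the gene's strand. The table held 11 windows of 250 bases for 9 of the 10 members, and none for Gsta4. Capitals mark matches to TGACNNNGC (the core of the antioxidant response element), TGAGTCA (an AP-1 site) or GGGCGG (a GC box), searched on both strands; the first 2 share letters and can overlap. In the shorter stretches of Gstm5, Mgst1 and Gstp1, only the first of these or the AP-1 site is marked.
Gsta3, chr1:21240335-21240584, plus strand: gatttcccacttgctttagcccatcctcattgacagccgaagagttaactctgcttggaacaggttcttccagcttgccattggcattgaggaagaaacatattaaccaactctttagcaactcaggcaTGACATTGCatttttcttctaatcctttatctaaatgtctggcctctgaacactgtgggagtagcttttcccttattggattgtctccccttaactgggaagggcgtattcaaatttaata
Gsto1, chr19:47854723-47854972, plus strand: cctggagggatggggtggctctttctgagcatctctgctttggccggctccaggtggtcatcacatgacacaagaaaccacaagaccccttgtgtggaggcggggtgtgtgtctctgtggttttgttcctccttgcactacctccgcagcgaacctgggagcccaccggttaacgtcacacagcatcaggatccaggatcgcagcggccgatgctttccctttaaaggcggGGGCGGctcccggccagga
Gstm5, chr3:107895792-107895840, plus strand: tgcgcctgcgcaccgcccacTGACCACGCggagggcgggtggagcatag
Mgst1, chr6:138140451-138140499, plus strand: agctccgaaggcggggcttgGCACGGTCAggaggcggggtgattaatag
Gstp1, chr19:4037960-4038006, minus strand: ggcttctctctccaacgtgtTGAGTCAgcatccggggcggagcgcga
The Mgst1 match is on the opposite strand. The Gsta3 window held the element TGACATTGC, from 121 to 113 bases before the start. The Gsto1 window held no match to TGACNNNGC or TGAGTCA and 1 GC box, from 19 to 14 bases before the start. Counted by window, TGACNNNGC was found in 3 of the members' 11 windows, 1 each of Gsta3, Gstm5 and Mgst1, and in 10.2% of all 32851 windows of this length. TGAGTCA was found in 2 of the 11, those of Gstm5 and Gstp1, against 4.46% of all windows, and GGGCGG in 5 of the 11, against 32.7%. The windows of Gstm1, Gstm2 and Gstt1 held none of the 3 motifs. A match describes letters and not a bound site.

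The arrays were alike in median intensity, at 32.2 and 32.1 in floxed lungs and 33.8 and 34.3 in wild type lungs. The highest intensities differed more, at 19539 and 16645 in floxed lungs and 14910 and 14417 in wild type lungs. The labelled tissue was borne out by the surfactant gene Sftpc, with an intensity of 13619 and 10831 in floxed lungs and 9204 and 8743 in wild type lungs. Xist, the noncoding RNA of the silenced X chromosome in females, stood at 4246 and 4629 in floxed lungs and 31.8 and 22.9 in wild type lungs, while the Y-linked Eif2s3y, Uty and Kdm5d were at most 6.14 in floxed lungs and at least 109 in wild type lungs. Genotype and sex pattern therefore cannot be told apart in any difference below. Gapdh probe sets at the 3′ and 5′ ends, whose ratio tracks RNA integrity, gave ratios of 1.44 and 1.68 in floxed lungs and 1.18 and 1.10 in wild type lungs. The same ratios for actin lay closer together, at 2.67 and 2.77 in floxed lungs and 2.65 and 2.46 in wild type lungs. The part of RNA integrity in the results was not tested. The targeted gene is not analysed here.

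None of the 10 transferase genes passed the test between genotypes, while 1.77% of all genes did (1.01% higher and 0.762% lower in floxed lungs). The test was limma on log2(intensity + 16), with p-values adjusted over all 12735 genes above a filter on low intensity and a threshold of 0.05; all 10 members were above the filter. A fold change on this scale understates that of dim probes, by more the dimmer they are: the log2 fold change of Kdm5d was -3.03, and -6.27 with a pseudocount of 1. Each gene stands for its brightest probe set. At an unadjusted p under 0.05 there were 2 members, Gsto1 and Gsta3, against 14.3% of all genes. The log2 fold changes of the 10 (floxed minus wild type) ran from -0.69 to 0.32 with a median of -0.07, and 6 lay below 0. The median of all genes tested was 4.7e-05. The groups did not overlap for 6 members, 4 with the floxed arrays below and 2 with them above, and they did not overlap for 45.8% of all genes (floxed below in 22.2%, above in 23.6%). Of the 15 member probe sets tested, 9 had groups that did not overlap, against 42.5% of all probe sets, and 4 had an unadjusted p under 0.05, against 10.8%; these were the pairs of Gsto1 and Gsta3. The 95% interval lay inside a 2-fold change either way for 9 of the 10 members, all but Gsto1, and inside a 1.5-fold change for 7. These intervals are per gene and not adjusted for the number of genes. In a bulk sample, fewer cells of a type and less RNA per cell cannot be told apart.

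**Figure D1:**
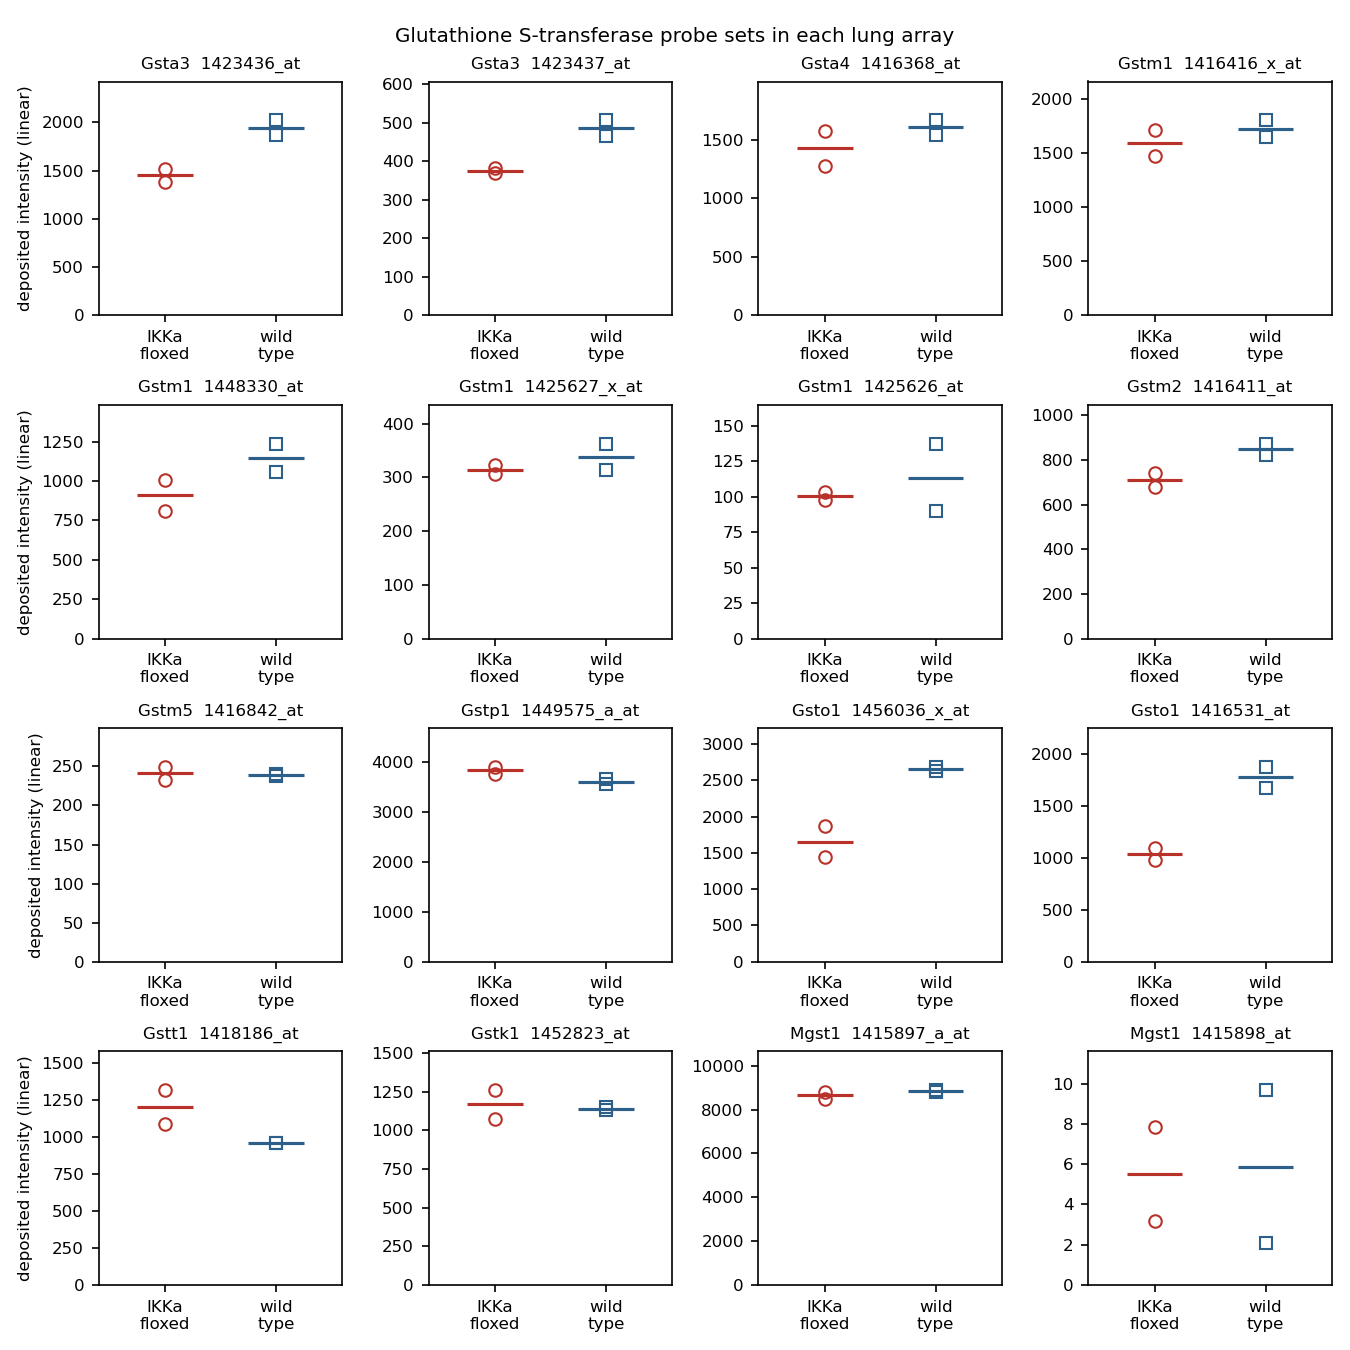
Deposited intensity (linear, each panel from 0) of the 16 probe sets in the 4 arrays, IKKa floxed as red circles and wild type as blue squares, with the mean of 2 as a line. The probe sets of Gsto1 and Gsta3 show the floxed lungs below the wild type lungs in both of their panels, and Gstt1 shows them above.

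Gsto1, of the omega class, showed the largest difference of the family. Omega enzymes carry a cysteine in the active site and act mainly as thiol transferases and dehydroascorbate reductases. Its brighter probe set, 1456036_x_at, had intensities of 1449 and 1866 in floxed lungs and 2685 and 2630 in wild type lungs. Both floxed arrays lay below both wild type arrays, with means of 1658 ± 295 and 2658 ± 39.3 (SD, n = 2 each). The log2 fold change was -0.69 ± 0.15 SE (95% interval -1.05 to -0.32), or 1.61-fold lower in floxed lungs, with a limma adjusted p of 0.0994. The second probe set, 1416531_at, had 1095 and 985 in floxed lungs and 1678 and 1878 in wild type lungs. In a fit over all 31526 probe sets above the filter, of which 0.546% passed, it stood at -0.76 ± 0.15 SE (limma adjusted p = 0.134). The pair of probe sets thus gave differences of similar size, and the lower floxed array was replicate 1 in the brighter and replicate 2 in the dimmer.

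The call of Gsto1 depended on the settings. It passed in 4 of 13 alternatives, with a pseudocount of 64 (limma adjusted p = 0.0175), with robust moderation along an intensity trend (0.0101), with the mean of its probe sets (-0.73, adjusted p = 0.0297) and without floxed replicate 2 (-0.87, adjusted p = 0.0404). Over all 13 the log2 fold change ran from -0.87 to -0.51, and the adjusted p from 0.0101 to 0.257. A probe set whose name ends in _x_at holds probes that can match related transcripts. With _x_at and _s_at probe sets left out, Gsto1 stood at -0.76 and did not pass (limma adjusted p = 0.0520).

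The alpha class enzymes Gsta3 and Gsta4 both stood below 0 without passing. Gsta3 is known in mice for conjugating the epoxide of aflatoxin B1. Its brighter probe set, 1423436_at, had 1520 and 1387 in floxed lungs and 1872 and 2021 in wild type lungs. The floxed arrays lay below the wild type arrays without overlap, at 1453 ± 94.1 against 1946 ± 105 (SD, n = 2 each). The log2 fold change was -0.42 ± 0.12 SE (95% interval -0.71 to -0.12, limma adjusted p = 0.195). The other probe set, 1423437_at, also separated the groups, with 382 and 370 in floxed lungs and 506 and 466 in wild type lungs (log2 fold change -0.36 ± 0.14 SE, limma adjusted p = 0.441 over all probe sets). Gsta3 passed under 1 of 13 alternatives, robust moderation along an intensity trend, at an adjusted p of 0.0496. Gsta4, which conjugates the lipid oxidation product 4-hydroxynonenal, had 1577 and 1279 in floxed lungs and 1545 and 1665 in wild type lungs. Its groups overlapped, since floxed replicate 1 lay between the wild type arrays (-0.17 ± 0.14 SE, limma adjusted p = 0.650). Without floxed replicate 2 its log2 fold change was -0.02, and without floxed replicate 1 it was -0.32.

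The mu class genes lie in a cluster on chromosome 3, and the probe sets of Gstm1, Gstm2 and Gstm5 gave differences between -0.33 and 0.01. Gstm1, a main mu class enzyme of the mouse, had 4 probe sets, all below 0. The brightest, 1416416_x_at, had 1718 and 1473 in floxed lungs and 1651 and 1803 in wild type lungs, with overlapping groups (-0.12 ± 0.13 SE, limma adjusted p = 0.757). Without floxed replicate 1 it stood at -0.23, and without floxed replicate 2 at -0.0062. The next, 1448330_at, had 1009 and 808 in floxed lungs and 1056 and 1236 in wild type lungs, without overlap (-0.33 ± 0.17 SE, adjusted p = 0.552 over all probe sets, limma). The remaining probe sets of Gstm1, 1425627_x_at and 1425626_at, had log2 fold changes of -0.10 and -0.13 with overlapping groups. The size of the Gstm1 difference therefore varied with the probe set, and all 4 of the 95% intervals included 0.

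Gstm2, another mu class enzyme, had 743 and 681 in floxed lungs and 823 and 873 in wild type lungs. Both floxed arrays were below both wild type arrays, with means of 712 ± 43.8 and 848 ± 35.2 (SD, n = 2 each; -0.25 ± 0.12 SE, 95% interval -0.54 to 0.04, limma adjusted p = 0.430). Gstm5, a mu class gene at the other end of the cluster, had 249 and 233 in floxed lungs and 238 and 240 in wild type lungs. Its wild type arrays lay between the floxed arrays (0.01 ± 0.12 SE, 95% interval -0.27 to 0.29, limma adjusted p = 0.984). Transcripts of mu class genes are similar in sequence, so signal from one member in the probe sets of another was not tested.

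Gstp1 and Gstt1 stood above 0. Gstp1, the pi class enzyme, is also known to bind and restrain the kinase JNK. It had 3757 and 3892 in floxed lungs and 3659 and 3542 in wild type lungs, a small difference without overlap (0.09 ± 0.12 SE, 95% interval -0.19 to 0.37, limma adjusted p = 0.793). After quantile normalization its sign turned, to -0.044. Gstt1, a theta class enzyme that acts on small halogenated compounds, had 1317 and 1087 in floxed lungs and 957 and 961 in wild type lungs. Both floxed arrays were above both wild type arrays, with means of 1202 ± 162 and 959 ± 2.76 (SD, n = 2 each). The log2 fold change was 0.32 ± 0.14 SE (95% interval -0.01 to 0.64, limma adjusted p = 0.368), and with an array left out it ran from 0.18 (without floxed replicate 1) to 0.45 (without floxed replicate 2).

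The organelle and membrane enzymes were near 0. Gstk1, the kappa class enzyme, had 1260 and 1076 in floxed lungs and 1151 and 1132 in wild type lungs, so the floxed arrays lay on either side of the wild type arrays (0.03 ± 0.13 SE, 95% interval -0.28 to 0.34, limma adjusted p = 0.951). Mgst1, which guards membranes of the endoplasmic reticulum and mitochondria against lipid peroxides, had 8791 and 8497 in floxed lungs and 8809 and 8882 in wild type lungs with probe set 1415897_a_at. The groups did not overlap, though the floxed arrays were below by little (-0.03 ± 0.12 SE, 95% interval -0.31 to 0.24, limma adjusted p = 0.932). After quantile normalization the log2 fold change of Mgst1 was -0.27 (adjusted p = 0.377). That setting also took the median of the 10 members to -0.20, while the median of all genes was 0.01. The second Mgst1 probe set, 1415898_at, read 3.20 and 7.83 in floxed lungs and 2.09 and 9.67 in wild type lungs. It was below the filter and was the 1 probe set of the 16 that was not tested.

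**Figure D2:**
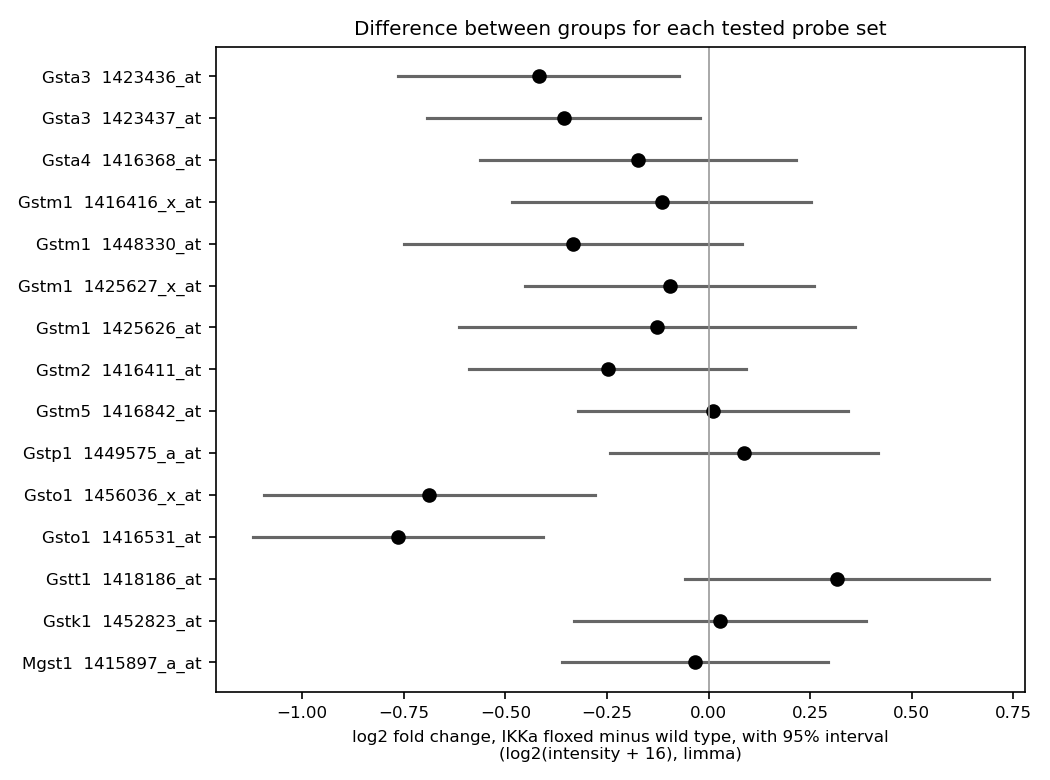
Log2 fold change (IKKa floxed minus wild type, log2(intensity + 16)) of the 15 tested probe sets, with the 95% interval from limma over all probe sets. The intervals of the Gsto1 and Gsta3 probe sets lie below 0, those of the others include 0, and no probe set passed after adjustment.

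**Figure D3:**
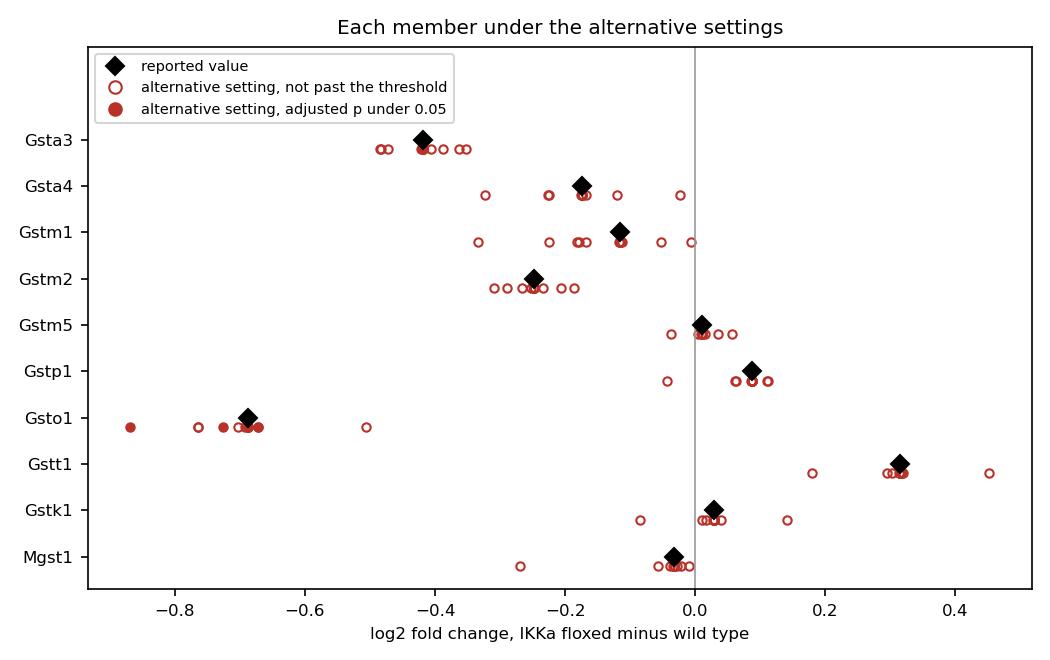
Log2 fold change of each member as reported (black diamond) and under 13 alternative settings (circles, filled where the adjusted p was under 0.05). Gsto1 lies between -0.87 and -0.51 throughout with 4 filled circles, Gsta3 has 1, and Gstm5, Gstp1 and Gstk1 have 1 circle each on the other side of 0.

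Many of these genes stand in tandem arrays, and neighbours were compared in chromosome order (RefSeq, GRCm38.p6). The neighbours were picked by position, after the values of the members had been seen. In the mu cluster, Gstm4, next to Gstm1, stood at 0.24 ± 0.15 SE and Gstm3, next to Gstm2, at 0.01 ± 0.12 SE, while Gstm7 and Gstm6 stood at -0.14 and 0.10. In the theta cluster on chromosome 10, Gstt3 stood at -0.32 ± 0.13 SE (190 and 188 in floxed lungs against 221 and 260 in wild type lungs), while its neighbour Gstt1 was above 0. Gstt2 stood at 0.09. The difference between Gstt1 and Gstt3 was not tested. Next to Gsto1 on chromosome 19, Cfap43, a gene of the cilium axoneme, stood at -0.48 ± 0.18 SE (limma adjusted p = 0.306), and the next genes out, Sfr1 beyond Cfap43 and Itprip beyond Gsto2, stood at 0.14 and 0.06. Gsto2, the other omega gene, was below the filter, with 21.3 and 12.8 in floxed lungs and 19.7 and 15.7 in wild type lungs. Around Gstp1 on chromosome 19, Doc2g stood at -0.62 ± 0.14 SE (limma adjusted p = 0.0990). Ndufv1, Nudt8 and Gstp3 stood there at -0.02, 0.18 and 0.30. None of the neighbours tested passed, those of the other members included.

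**Figure D4:**
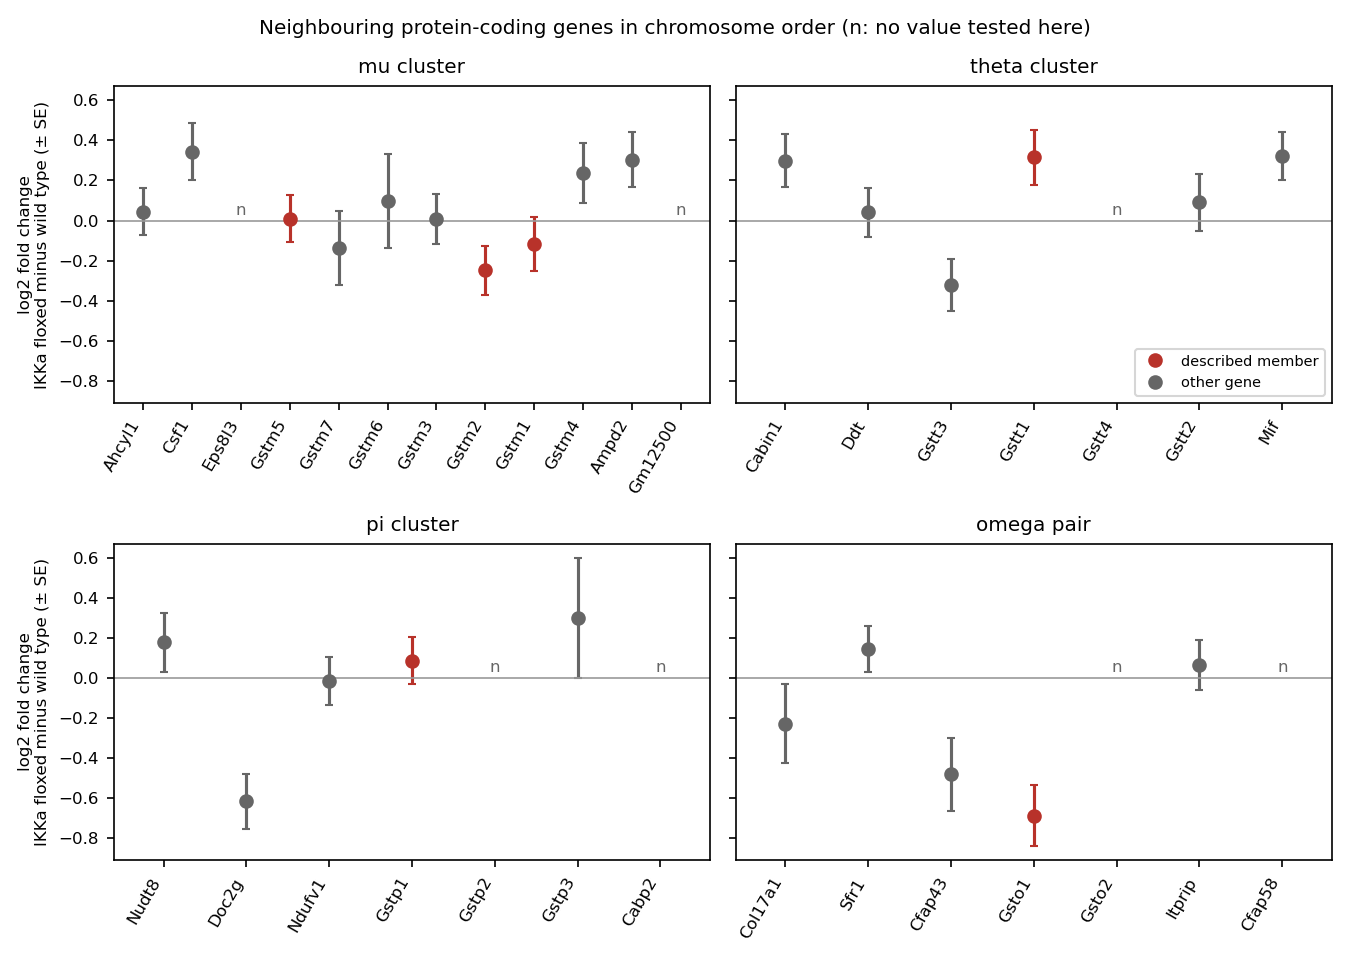
Log2 fold change (± SE from limma) of protein-coding genes around the mu, theta, pi and omega genes, in chromosome order and evenly spaced, with described members in red and n where no value was tested here. Gstt1 and Gstt3 stand on opposite sides of 0, and Gsto1 is the lowest point of its panel.

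The remaining genes of the family and pathway were counted in lists. Over all genes tested, 1.77% passed limma and 14.3% had an unadjusted p under 0.05. Of 22 other transferase and MAPEG genes, 15 were tested, none passed limma over all genes, and 2 had an unadjusted p under 0.05 (median -0.06). These were Gsta2, an alpha class enzyme, with 396 and 413 in floxed lungs and 534 and 527 in wild type lungs (-0.38 ± 0.12 SE, limma adjusted p = 0.207), and Gstt3. The groups did not overlap for either, as for 45.8% of all genes. In the list of 15 the groups overlapped for 11, the floxed arrays lay below for 3 and above for 1. The next by p were Gstz1, the zeta class enzyme of tyrosine breakdown (-0.22), and Gstm4. Alox5ap and Ltc4s, MAPEG members that serve leukotriene synthesis, stood at -0.09 and -0.20.

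Of 16 tested genes of glutathione synthesis, recycling and breakdown, none passed and none had an unadjusted p under 0.05 (limma, median -0.01). Gclc, the catalytic subunit of the enzyme that limits glutathione synthesis, had 1247 and 1248 in floxed lungs and 1463 and 1460 in wild type lungs. Its replicates lay close together and its groups were apart, as were those of 45.8% of all genes (-0.23 ± 0.12 SE, limma adjusted p = 0.451). Its partner Gclm stood at -0.09, the synthetase Gss at -0.24, the glyoxalase Glo1 at -0.29 and the glutaredoxin Glrx at 0.22. With the mean of all their probe sets Gclc, Gss, Glo1 and Glrx stood at -0.17, -0.13, -0.063 and 0.036. When an array was left out, the brightest probe set of each gene was chosen anew. Glo1 stood at -0.47 without wild type replicate 2. Its value of -0.15 without floxed replicate 2 came from another probe set, so it does not show the effect of that array alone. Gss stood at -0.12 without floxed replicate 1 and at -0.35 without floxed replicate 2.

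Among 15 glutathione and thioredoxin peroxidases and reductases, none passed limma and 3 had an unadjusted p under 0.05, against 14.3% of all genes. The median was -0.04. Gpx3, the secreted glutathione peroxidase, had 2237 and 2057 in floxed lungs and 1600 and 1705 in wild type lungs (0.37 ± 0.12 SE, limma adjusted p = 0.236). Gpx2, the epithelial form, had 323 and 301 in floxed lungs and 419 and 392 in wild type lungs (-0.36 ± 0.12 SE, limma adjusted p = 0.242). Gpx8 and Gpx7, of the endoplasmic reticulum, stood at -0.29 and -0.32. The peroxidases thus lay on both sides of 0, as the transferases did. Of 7 export genes none passed, and 1, Abcc3, an exporter of conjugates, had an unadjusted p under 0.05 (-0.40 ± 0.14 SE, limma adjusted p = 0.261). Abcg2, Abcc1 and Abcb1b stood at 0.14, 0.11 and -0.12, with overlapping groups.

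The 2 genes that passed in the pathway lists were other detoxification enzymes. Of 21 such genes tested, 2 passed, both lower in floxed lungs, against 1.77% of all genes. A limma unadjusted p under 0.05 was found for 4 of the 21, against 14.3% of all genes. In all, 11 of the 21 lay below 0 and 10 above (median -0.00026). Sult1d1, a sulfotransferase, had 305 and 241 in floxed lungs and 511 and 634 in wild type lungs (-1.03 ± 0.17 SE, limma adjusted p = 0.0400). Aldh3a1, an aldehyde dehydrogenase that also lies among NRF2 targets, had 73.0 and 83.0 in floxed lungs and 146 and 134 in wild type lungs (-0.73 ± 0.13 SE, limma adjusted p = 0.0476). Without wild type replicate 2 or floxed replicate 2 Sult1d1 missed the threshold (limma adjusted p = 0.117 and 0.0758), and Aldh3a1 missed it whichever array was left out (0.0561 to 0.186). Both calls were also lost with a pseudocount of 1 and with no filter, and Aldh3a1 with quantile normalization. The carbonyl reductases Cbr3 and Cbr1, also with an unadjusted limma p under 0.05, stood at -0.35 and -0.30. NRF2 itself (Nfe2l2) stood at -0.01 and its inhibitor Keap1 at 0.14. Nqo1 and Hmox1, which are among the NRF2 targets, stood at 0.07 and -0.02. The groups overlapped for each of Nfe2l2, Keap1, Nqo1 and Hmox1.

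**Figure D5:**
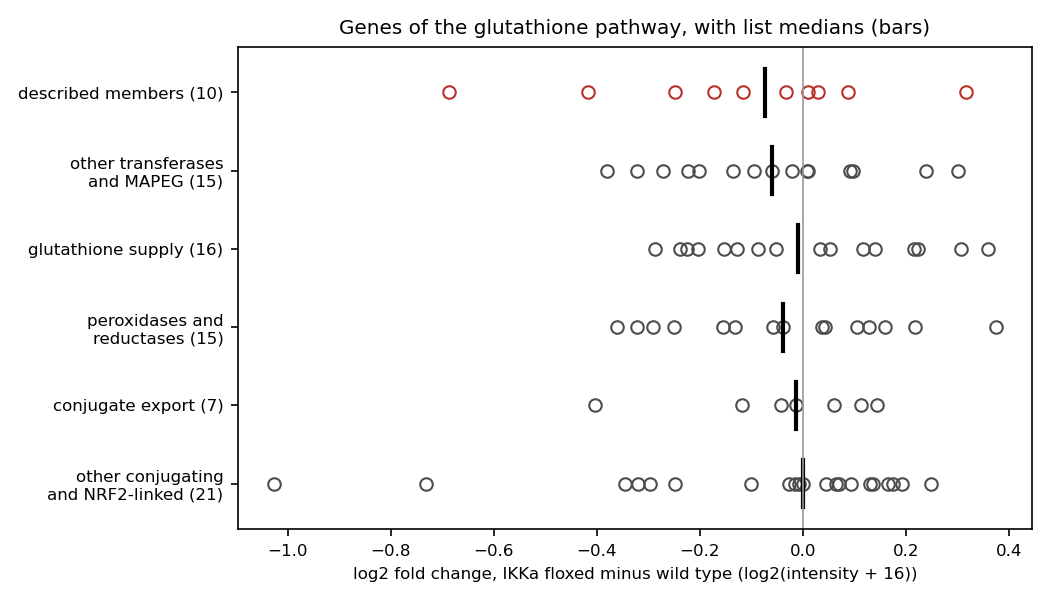
Log2 fold change (IKKa floxed minus wild type) of each tested gene in the 10 members (red) and the 5 pathway lists, with the median as a bar and the number of genes in brackets. The medians lie between -0.07 and -0.00026, and the 2 points farthest to the left outside the members are Sult1d1 and Aldh3a1.

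The genes whose profile over the 4 arrays was most like that of Gsto1 were Tec, Zfp788, Tecrl, Lgr4 and Tmem117. Likeness was the Euclidean distance between log2 values centred per gene, which ran from 0.05 for Tec to 0.11 for Tmem117. Tec, a tyrosine kinase of blood cells, had 76.6 and 106 in floxed lungs and 157 and 160 in wild type lungs. Likeness was measured to the brighter Gsto1 probe set. That choice fixes that the floxed arrays lie below, that floxed replicate 1 is the lower, and the size of the difference in all 5. Their log2 fold changes ran from -0.72 to -0.60.

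Markers of several cell types moved with genotype on the same arrays, where 1.77% of all genes passed. All 14 tested markers of ciliated cells lay below 0 (median -0.38), with summed intensities of 8815 and 7349 in floxed lungs and 10120 and 9643 in wild type lungs, and none passed. Of 14 club and secretory cell markers, 4 were lower past the threshold (Scgb3a1, Bpifb1, Muc5b and Bpifa1), and the median was -0.39. In this list 10 markers lay below 0 and 4 above, up to 0.34, and none was higher past the threshold. The sums of this list were 68792 and 57452 in floxed lungs and 62431 and 64331 in wild type lungs. Lymphocyte and plasma cell markers summed to 19311 and 16544 in floxed lungs and 2162 and 2304 in wild type lungs, with 6 of 11 higher past the threshold. Most of the floxed sums came from the antibody genes Igha and Jchain. Igha had 10105 and 7956 in floxed lungs and 815 and 594 in wild type lungs. Jchain had 6470 and 6874 in floxed lungs and 324 and 673 in wild type lungs. Cardiac muscle markers summed to 759 and 630 in floxed lungs and 5276 and 7753 in wild type lungs. Of these, 11 of 13 were lower past the threshold. Adipose markers summed to 376 and 427 against 1608 and 1214, with 4 of 8 lower past the threshold. The filter used the mean over all 4 arrays, with a cut of 21.0 for genes. Some called markers were therefore tested only through the wild type arrays. Floxed intensities were 18.6 and 14.5 for Adipoq, 16.4 and 14.2 for Retn, and 11.2 and 13.6 for the cardiac gene Sln. The counts of lower markers depend in part on this filter. Type 2 alveolar markers (14 tested, median 0.11), type 1 alveolar markers (13, median 0.06) and endothelial markers (13, median 0.14) had no member past the threshold. Of the fibroblast markers, 1 of 14 was higher and 1 lower past the threshold (median 0.01). Alveolar macrophage markers had 1 of 12 higher past the threshold (median 0.18). Their sums were 11721 and 11633 in floxed lungs and 8849 and 9196 in wild type lungs. Of 11 liver markers on the array 3 were above the filter, and none passed (median -0.24). The part of these cell types in the differences of Gsto1, Gsta3 and Gstt1 was not tested.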

How the data were processed

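The authors deposited 1 linear intensity per probe set and array; per the submitters' processing notes these were made with Affymetrix Expression Console, whose version and summary method were not found in the labels. The deposited intensity had a mean of 150.001 on every array after trimming 2% from each end, so no further scaling was done (array medians differed by at most 0.0647 on the log2 scale, under the limit of 0.1). The number of arrays limits the precision.

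Of 45101 probe sets, 64 were array controls, 34945 had 1 symbol, 932 had several and 9160 were not listed in the platform annotation. Symbols were checked by Entrez number against RefSeq, where 34741 matched and 0 changed. Each of 18193 genes was taken at its brightest probe set, by the mean over the arrays, chosen anew when an array was left out. Rows under the 30th percentile of mean intensity (21.0 for genes, 12.7 for probe sets) were left out. The groups were compared on log2(intensity + 16) in R 4.3.3 using limma 3.58.1 (two-sided, lmFit then eBayes, no covariates, Benjamini-Hochberg adjustment), with 2 residual and 4.67 prior degrees of freedom for genes. An exact permutation test of 2 against 2 arrays cannot give a p below 0.333, so none was run. The procedure was tested on simulated data.

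The members, gene lists and settings were chosen with earlier results of these data known. Genes were named by rule: every member, from each pathway list the 4 with the smallest p and any called gene, the sex-linked genes, and the 5 profiles nearest to the member with the largest difference. Further genes of the lists (Alox5ap, Ltc4s, Gclm, Nfe2l2, Keap1, Nqo1, Hmox1), the flanking genes, Sftpc, the called club cell genes and the other cell type markers were named after their values were seen.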

Additional observations from a re-analysis of the deposited data

How the results depend on the processing

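The 12735 genes tested gave 225 calls as reported, 110 with a pseudocount of 1, 362 with a pseudocount of 64, 388 with robust moderation along an intensity trend, and 141 (without wild type replicate 2) to 243 with an array left out. With no filter, 18193 genes were tested and gave 69 calls. Of the 10 transferases 0 passed as reported, 1 with a pseudocount of 64, 2 with robust moderation along an intensity trend, 1 with probe sets averaged per gene, and 0 to 1 with an array left out. Of their 15 tested probe sets 0 passed as reported, 2 with a pseudocount of 64, 2 with robust moderation along an intensity trend, and 0 with any array left out. Quantile normalization turned the sign of Gstp1 and of its only probe set (-0.044). With an array left out, Gstm5 ran from -0.037 to 0.057 and Gstk1 from -0.084 to 0.14, as did their probe sets 1416842_at and 1452823_at, Abcc1 from -0.030 to 0.26, Abcb1b from -0.36 to 0.12, and the Gstm1 probe sets 1425627_x_at and 1425626_at from -0.20 to 0.0049 and from -0.40 to 0.14. Abcc1 was -0.037 with the mean of its probe sets. The cause was not tested. With a pseudocount of 1, Sult1d1 and Aldh3a1 had limma adjusted p of 0.105 and 0.0883, and with no filter 0.144 and 0.153; Aldh3a1 had 0.0588 with quantile normalization and 0.0536 without _x_at and _s_at probe sets. That last setting (12532 genes tested) was chosen after seeing the data.

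The labels do not say what the replicate numbers in the titles mark, and deviations of same-numbered arrays correlated at r = 0.0021 across genes. With the replicate number as a block, 198 genes and 0 transferases passed, and Sult1d1 and Aldh3a1 had adjusted p of 0.0724 and 0.0878. Detection calls were not used, and the intensities of dim probe sets have no stated floor.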
